A study of Mus musculus with 10 samples.

Results

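The genes described here are 30 genes of voltage-gated sodium and calcium channels in the mouse, among 26089 curated RefSeq genes off chromosome Y. They were chosen by name. They hold 9 pore subunits and 3 accessory beta subunits of sodium channels, 9 pore subunits, 4 alpha2delta subunits and 4 beta subunits of calcium channels, and the sodium leak channel Nalcn. Binding of the repressor REST was measured by ChIP-seq in the cortex of female mice at 11 months of age. The groups were WT mice and 3xTg mice, a model of Alzheimer's disease that carries human APP Swe and tau P301L transgenes and a PS1 knock-in mutation. Each genotype had 4 replicates, each of 4 pooled cortices, and an input library. A peak was assigned to a gene when it overlapped the gene body or lay within 5 kb of a start site by at least 1 base.

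REST, the RE1-silencing transcription factor, binds a long DNA element called RE1 and recruits corepressor complexes that silence neuronal genes. Voltage-gated sodium channels carry the rising phase of the action potential, and calcium channels couple membrane voltage to transmitter release, gene expression and pacemaking. Scn2a, which encodes a brain sodium channel, is among the genes in which the element was first described, and there it is known for silencing the gene in cells that are not neurons.

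The deposited data give 1 peak list per genotype, combined over the 4 replicates. The WT list held 3006 peaks and the 3xTg list 5077. The lists have no value per replicate, so the values below have no replicate check and no test was made. The authors' own comparison of replicates was not used here. Fold enrichment, the ratio of ChIP signal at a summit to the local background, started at 6.0 in the WT list and at 8.50 in the 3xTg list. A site whose value lies between these in both genotypes can therefore be in the WT list only. Both starts lie above the authors' stated filter of 5, and the sources used here do not say why they differ. Cortex is a mixed tissue, and fewer cells with a bound site and weaker binding per cell cannot be told apart in it.

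The RE1 sequences of the channel genes are shown first, because they separate the peaks that hold the element from those that do not. The genome was searched for the 20-base consensus on both strands. A total of 10 matches with at most 3 mismatches lay in or near 7 channel genes. In each sequence the matched element runs from base 6 to base 25, with 5 flanking bases on either side, capitals mark bases that equal the consensus, and the strand is that of the printed letters. Coordinates are those of mm10. Both of the following lay under a 3xTg peak and under no WT peak.
Scn2a, chr2:65619960-65619989, plus strand: ggcttTCAGCACCAcGGACAGCaCCagaat
Cacna1b, chr2:24762079-24762108, plus strand: cgccgTCAGCACCAcGGACAGCTgCctggc
The other 8 lay under no peak of either list.
Cacna1h, chr17:25400629-25400658, minus strand: ctgctTCAGCACCAcGGACAGCGaCcgccg
Scn8a, chr15:101002976-101003005, plus strand: ctaacTCAGCACCAaGcACAGCcCCtgaga
Scn10a, chr9:119664297-119664326, plus strand: ggtgtTCAGCACCAgGGACAGaGCtgctga
Scn10a, chr9:119706893-119706922, minus strand: gaggtTCAGCACCAcGGACAGaGCagagcc
Cacna1a, chr8:84471456-84471485, plus strand: ccgttTCAGCACgcTGGACAGCaCCatggc
Cacna1a, chr8:84454738-84454767, minus strand: gacatTCAGCACCATGGcCAGCagCcaacg
Cacna1a, chr8:84469282-84469311, minus strand: tgtttgCAGCACCATGGACAGaaCCcacga
Cacna2d3, chr14:29657198-29657227, minus strand: cctgtTCAGCACCAaGGACAGCaaCagagc
A match with 4 mismatches in the first intron of Scn3b is added because it lies 533 bases from the start site, and it was chosen after its position was seen. It too lay under no peak.
Scn3b, chr9:40269735-40269764, minus strand: ttggcTCAGCACCAcGGACAGtagCcttcc
The first hexamer of the consensus, AGCACC, stood in 10 of the 11 elements, the exception being 1 of the 3 in Cacna1a. The elements were selected for closeness to that consensus, so this count is largely set by the search. The matches in Scn2a, Cacna1b and Cacna1h each had 2 mismatches. Across the genome, 12.3% of the 1214 matches with at most 3 mismatches lay under a WT peak and 14.4% under a 3xTg peak. The channel genes gave 0 of 10 and 2 of 10.

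A REST peak was assigned to 6 of the 30 channel genes in the WT list (20%, 95% Wilson interval 9.51 to 37.3) and to 11 of 30 in the 3xTg list (36.7%, interval 21.9 to 54.5). These intervals cover counting error only. The same rule gave a WT peak to 9.3% of all RefSeq genes and a 3xTg peak to 14.2%. All 6 genes of the WT list were also in the 3xTg list, so 11 channel genes had a peak in either list. Among all 26089 genes, 2426 had a WT peak, 3706 a 3xTg peak and 4102 (15.7%) a peak in either list. Genes with a 3xTg peak and no WT peak were thus common among all genes too. Scn1a, Scn8a, Cacna1c, Cacna1d, Cacna2d4 and Cacnb1 had peaks in both lists, and Scn2a, Cacna1b, Cacna2d1, Cacna2d3 and Cacnb4 in the 3xTg list only. The remaining 19 had none.

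Channel genes are long, with a median length of 123 kb against 13.5 kb over all genes. A long gene body has more room for a peak, and among all genes over 100 kb a WT peak was assigned to 24.9% and a 3xTg peak to 39.2%. Of the 20 channel genes over 100 kb, 5 had a WT peak and 10 a 3xTg peak. Of the 7 channel genes of 20 to 100 kb, only Cacnb1 had a peak, in both lists, where the shares over all genes of that length were 10.7% and 16.8%. The 3 shorter genes (Scn2b, Scn4b and Cacnb3) had none, beside 6.16% and 9% of all genes under 20 kb. When the shares of these length classes were weighted to the lengths of the channel genes, they came to 19.7% for WT and 31.0% for 3xTg. The 20% and 36.7% of the channel genes lay nearer to these weighted shares than to the shares over all genes. The channel genes were chosen by name with earlier results known, and no test was made. Per megabase of gene body the channel genes had 1.22 WT and 2.62 3xTg peaks, and all genes over 100 kb had 1.35 and 2.61. Over all genes of any length these were 2.22 and 3.88, so by this measure the channel genes stood below all genes.

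**Figure D1:**
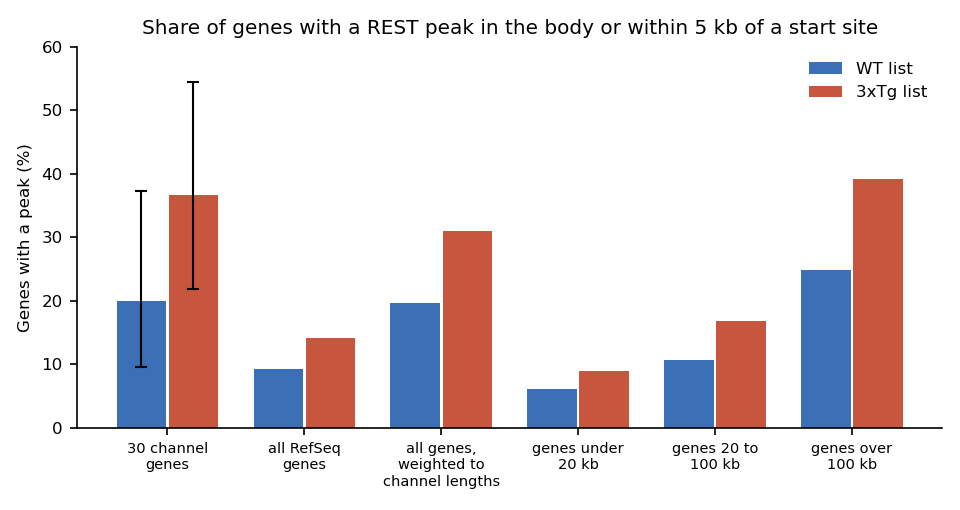
Share of genes with a REST peak (%, vertical axis) in the WT and 3xTg lists, for the 30 channel genes with 95% Wilson intervals as error bars, for all RefSeq genes, for all genes weighted to the lengths of the channel genes, and for 3 length classes. The channel genes (20% and 36.7%) stand above all genes (9.3% and 14.2%) and near the length-weighted shares (19.7% and 31.0%).

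When only peaks within 5 kb of a start site were counted, 2 channel genes had a WT peak (Scn1a and Scn8a) and 6 a 3xTg peak (Scn1a, Scn2a, Scn8a, Cacna1b, Cacna1c and Cacna2d3). The shares over all genes were 6.72% and 9.87%.

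Among the 9 sodium channel pore subunits, 2 had a WT peak and 3 a 3xTg peak. These shares, 22.2% and 33.3%, stand beside 9.3% and 14.2% of all genes and 24.9% and 39.2% of genes over 100 kb. The class over 100 kb does not match the whole group. Scn4a (30.8 kb) and Scn11a (71.7 kb) are shorter and had no peak, which lowers the share of the group. The 3 genes with a peak encode channels of central neurons. Scn1a encodes a channel of the axons of inhibitory interneurons, Scn2a one of excitatory neurons and their unmyelinated axons, and Scn8a one of the axon initial segment and the nodes of Ranvier.

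The Scn1a peak lay in the first intron. Its summit was 668 bases from the start site in the WT list (chr2:66439629-66440335, fold enrichment 6.62, rank 2042) and 703 bases in the 3xTg list (chr2:66439415-66441279, fold enrichment 15.71, rank 924). The pooled value was 2.37 times higher in the 3xTg list, a ratio that 93.8% of all shared WT peaks did not exceed. It stood in the weaker part of the WT list and in the stronger part of the 3xTg list.

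The Scn2a peak was in the 3xTg list alone (chr2:65619783-65620360). It had a fold enrichment of 9.49 and ranked 3669. Its summit lay 775 bases upstream of the start site and 19 bases from the centre of the RE1 printed above. The nearest WT peak was 478 kb from a Scn2a start site.

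Scn8a had the most peaks of any channel gene in the 3xTg list, 4, and 1 in the WT list. The shared peak lay upstream of the gene and was the strongest WT peak of the channel genes (chr15:100866652-100867606, fold enrichment 12.95, rank 286). In the 3xTg list it had a fold enrichment of 19.37 and ranked 536 (chr15:100866614-100867724). The summits were 3585 and 3340 bases from the start site. Its ratio between the lists was 1.5, and 25.4% of all shared WT peaks had a ratio at or below it.

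The other 3 Scn8a peaks were in the 3xTg list only. A pair lay in intron 1 of the longest transcript (chr15:100920918-100921544, fold enrichment 12.11, and chr15:100923259-100924126, fold enrichment 9.01). The third lay in intron 6 (chr15:100959822-100961996, fold enrichment 14.85) and was the strongest channel gene peak outside the WT list. The RE1 match of Scn8a, in intron 13, was 40985 bases from the nearest 3xTg peak.

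The shared peak upstream of Scn8a lay on a tandem repeat. In the reference genome a unit of 32 bases repeats over 769 bases, and the 200 bases at the summit were identical to themselves 1 unit further on in both lists. The sequence below shows 3 units around the WT summit, with the middle unit in capitals.
Scn8a, chr15:100867028-100867123, plus strand: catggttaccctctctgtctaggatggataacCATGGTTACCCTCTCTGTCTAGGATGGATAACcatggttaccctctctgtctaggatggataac
Such repeats, with at least 80% identity at a period of 5 to 100 bases, held 3.76% of all WT summits and 3.35% of all 3xTg summits. In windows 10 kb downstream they held 0.699% and 0.63%. The part of the repeat in the fold enrichment of this peak was not tested. An alternative without peaks of this kind was added after seeing the data. It gave 5 channel genes a WT peak and 11 a 3xTg peak, beside 9.08% and 13.9% of all genes.

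Scn3a, an embryonic brain channel, Scn4a of skeletal muscle, Scn7a, a salt-sensing channel, and Scn9a, Scn10a and Scn11a of sensory neurons had no peak. Scn9a came closest, with a WT peak 39.7 kb and a 3xTg peak 38.8 kb from its body. In both lists this was the Scn1a peak, and the Scn9a start site was 195 kb (WT) and 194 kb (3xTg) from the nearest peak. Scn10a held a pair of RE1 matches with 3 mismatches, and its body was 1102 kb from the nearest WT peak and 342 kb from the nearest 3xTg peak. The accessory beta subunits Scn2b, Scn3b and Scn4b modulate gating and cell adhesion. None had a peak in either list (0 of 3), beside 9.3% (WT) and 14.2% (3xTg) of all genes. Their nearest start site to a peak was that of Scn3b, at 95 kb in the WT list and 94.9 kb in the 3xTg list.

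**Figure D2:**
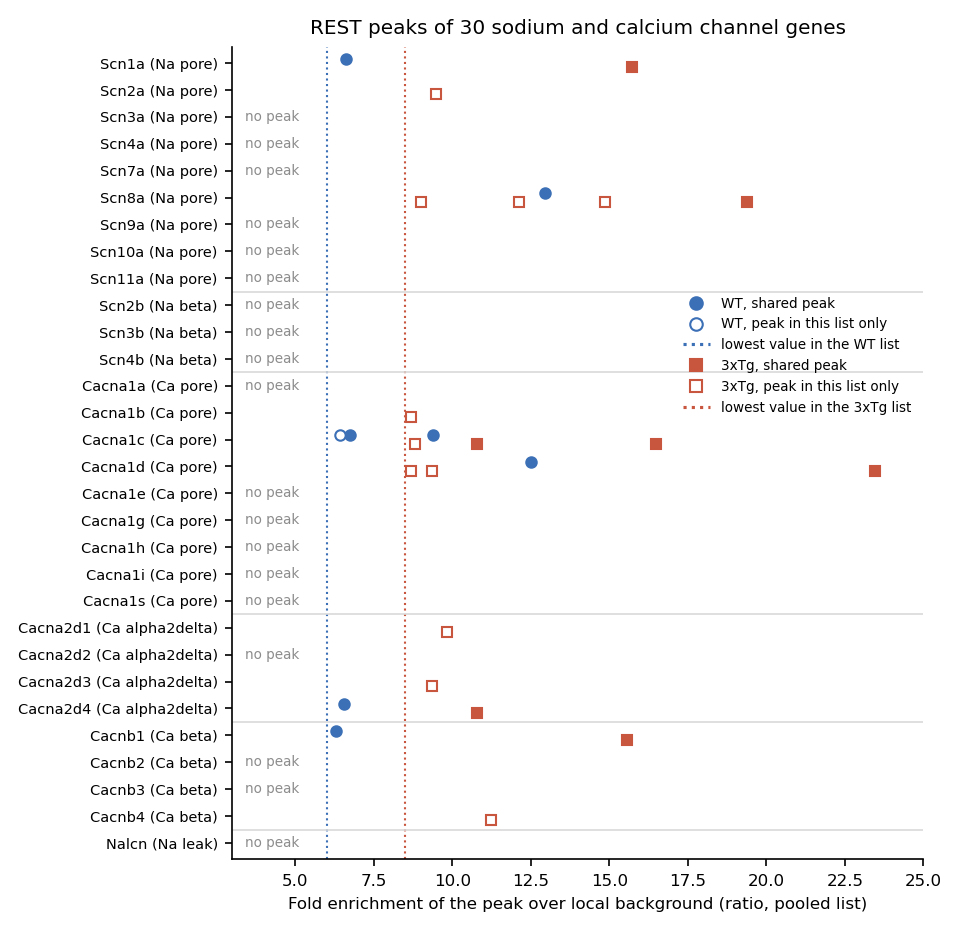
Fold enrichment over local background (ratio, horizontal axis) of each REST peak of the 30 channel genes, in rows by subunit; filled symbols are peaks found in both lists, open symbols peaks found in that list only, and dotted lines the lowest value in each list (6.0 and 8.50). Only 1 open WT symbol is seen, in Cacna1c, against 11 open 3xTg symbols in 8 genes.

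Among the 9 calcium channel pore subunits, 2 had a WT peak and 3 a 3xTg peak. These shares, 22.2% and 33.3%, stand beside 9.3% and 14.2% of all genes and 24.9% and 39.2% of genes over 100 kb. Here too the class over 100 kb does not match the whole group. Cacna1g (65.8 kb), Cacna1h (59.5 kb) and Cacna1s (67 kb) are shorter and had no peak, which lowers the share of the group. Cacna1c and Cacna1d encode the L-type channels of brain and heart that link calcium entry to gene expression and pacemaking. Cacna1b encodes the N-type channel of presynaptic terminals.

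Cacna1d had the strongest channel gene peak of the 3xTg list. It lay in intron 39 of the longest transcript, far from any start site of the gene (chr14:30056045-30057696, fold enrichment 23.45). In the WT list the same peak had a fold enrichment of 12.50 (chr14:30056797-30057492). It stood in the top 10.5% of the WT list and the top 5.93% of the 3xTg list.

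The best RE1 match at this summit had 10 mismatches in both lists. The 200 bases around the 3xTg summit are printed below because they carry the highest channel gene value, with capitals on the RE1 hexamer AGCACC, which lies on the opposite strand and reads GGTGCT here.
Cacna1d, chr14:30057126-30057325, minus strand: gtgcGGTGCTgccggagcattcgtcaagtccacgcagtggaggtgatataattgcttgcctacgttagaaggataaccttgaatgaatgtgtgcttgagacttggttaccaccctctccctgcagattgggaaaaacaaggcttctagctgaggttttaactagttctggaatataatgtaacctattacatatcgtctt
The Cacna1d window was the only WT window of a channel gene with AGCACC, where 15.4% of all WT windows held it on either strand. In the 3xTg list 6 of 18 channel gene windows held it, in Scn2a, Cacna1b, Cacna1d, Cacna2d1 and Cacna2d3, beside 13.6% of all. The second hexamer, GGACAG, was in 0 of 8 and 2 of 18 windows (Scn2a and Cacna1b), beside 17.5% and 15.7% of all.

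Cacna1d had 2 more peaks in the 3xTg list only. The weaker lay in intron 4 (chr14:30196008-30196779, fold enrichment 8.68). The other (chr14:30479139-30480211, fold enrichment 9.34) lay in intron 1 of Cacna1d, but its summit was 91 bases from a start site of Dcp1a, a gene of mRNA decapping that overlaps it. Position alone does not assign this peak to the channel gene.

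Cacna1c had 3 peaks in each list, and 2 of them were shared. The stronger shared peak lay in intron 8 (chr6:118739931-118740483 in WT), with a fold enrichment of 9.37 in WT and 16.50 in 3xTg. The other lay in intron 3 (chr6:118866892-118867242), with 6.73 and 10.80. Their ratios, 1.76 and 1.60, were near the median of all shared peaks.

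The third Cacna1c peak differed between the lists. The 3xTg list had a peak whose summit lay 73 bases inside a downstream start site of the gene (chr6:118757712-118758374, fold enrichment 8.80). The WT list had one in intron 1 (chr6:119087178-119087513, fold enrichment 6.43), the sole channel gene peak found only in WT. This WT peak also lay on a tandem repeat, of 18-base units over 253 bases, shown here by 3 units with the middle one in capitals.
Cacna1c, chr6:119087314-119087367, minus strand: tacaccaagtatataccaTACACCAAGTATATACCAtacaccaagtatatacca
Its fold enrichment of 6.43 was below the lowest value of the 3xTg list, 8.50.

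The Cacna1b peak was in the 3xTg list only (chr2:24761641-24762874). It had a fold enrichment of 8.70 and ranked 4763, near the end of the list. Its summit lay in intron 1, 1055 bases from the start site and 3 bases from the centre of the RE1. The WT list had no peak within 417 kb of the gene. By fold enrichment, both channel gene peaks with a close RE1, in Scn2a and Cacna1b, were therefore among the weaker ones of the 3xTg list. The −log10 of the q-value was 34.3 for the Scn2a peak and 52.2 for the Cacna1b peak. The latter stood above the 45.1 of the Cacnb4 peak, whose fold enrichment was 11.22.

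Cacna1a (P/Q-type), Cacna1e (R-type), the T-type channels Cacna1g, Cacna1h and Cacna1i, and Cacna1s of skeletal muscle had no peak. Cacna1h held an RE1 with 2 mismatches in intron 2, and its nearest peaks were 132 kb away in both lists. Cacna1a held 3 RE1 matches with 3 mismatches in introns 1 and 2, and its body was 16.2 kb from a 3xTg peak.

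The alpha2delta subunits bring calcium channels to the membrane and bind gabapentin in the case of Cacna2d1. Of these 4 genes, 1 had a WT peak and 3 a 3xTg peak. All 4 are over 100 kb, where 24.9% of all genes had a WT peak and 39.2% a 3xTg peak. The 95% Wilson interval for the 3 of 4 ran from 30.1% to 95.4%. Cacna2d1 had a 3xTg-only peak in intron 3 (chr5:16106010-16106814, fold enrichment 9.84). Cacna2d3 had a 3xTg-only peak upstream (chr14:29722158-29723700, fold enrichment 9.34), 1547 bases from its start site.

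Cacna2d4, known from the retina, had a shared peak in intron 26 (chr6:119318611-119319145 in WT), with a fold enrichment of 6.54 in WT and 10.80 in 3xTg. Its summit also lay inside Lrtm2, a gene within Cacna2d4. Cacna2d2 had no peak.

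Of the 4 beta subunits, which sit on the cytoplasmic side of the pore, 1 had a WT peak and 2 a 3xTg peak. Over all genes the shares were 9.3% and 14.2%, and over genes above 100 kb 24.9% and 39.2%. Cacnb1 (21.1 kb) and Cacnb3 (12.2 kb) are shorter than that class. The Cacnb1 peak was shared and lay in intron 13 (chr11:98003358-98003780 in WT, chr11:98003142-98003854 in 3xTg). It had the largest ratio of the 7 shared peaks, 2.47, from a fold enrichment of 6.31 in WT to 15.57 in 3xTg, and 95.7% of all shared WT peaks did not exceed it. Cacnb4 had a 3xTg-only peak in intron 2 (chr2:52533432-52534024, fold enrichment 11.22, rank 2289). Cacnb2 and Cacnb3 had no peak. Nalcn, the channel of the resting sodium leak, had none either, and its body lay 742 kb from the nearest WT peak and 363 kb from the nearest 3xTg peak.

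**Figure D3:**
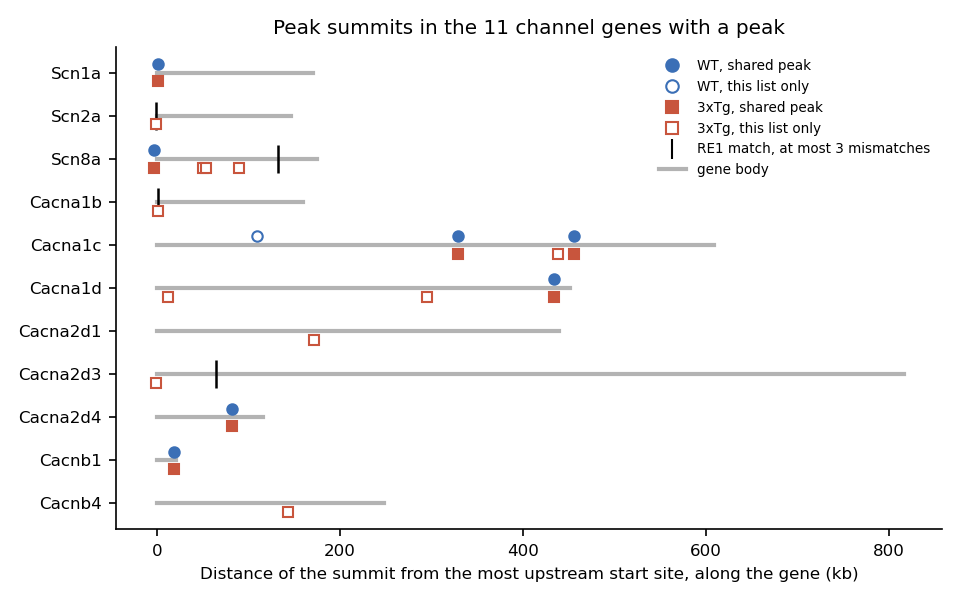
Summits of REST peaks in the 11 channel genes with a peak, by distance from the most upstream start site along the gene (kb, horizontal axis); grey bars are gene bodies, black ticks RE1 matches with at most 3 mismatches. Black ticks meet a peak in Scn2a and Cacna1b only, and the shared summits of Cacna1c and Cacna1d lie far from the most upstream start site.

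Counted once over both lists, the channel genes had 19 peaks, of which 7 were shared, 1 was found in WT only and 11 in 3xTg only. Of the 18 channel gene peaks of the 3xTg list, 61.1% were found there only, against 51% of all its peaks. Of the 8 of the WT list, 12.5% were found there only, against 16.7% of all.

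In the 7 shared peaks fold enrichment was higher in the 3xTg list each time, by a median of 1.76 times. Over all 2504 shared WT peaks the median ratio was 1.70, and the middle 80% of the ratios ran from 1.34 to 2.23. Fold enrichment was thus higher in the 3xTg list over shared peaks in general, and of the channel genes the Scn1a and Cacnb1 peaks lay above that range. A peak of the 3xTg list with a fold enrichment under 10.20 would fall below the lowest WT value when divided by the median ratio. This held for 8 of the 11 3xTg-only channel gene peaks (72.7%) and for 63.4% of all 3xTg-only peaks. The 3 above it were the intron peaks of Scn8a with 12.11 and 14.85 and that of Cacnb4.

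**Figure D4:**
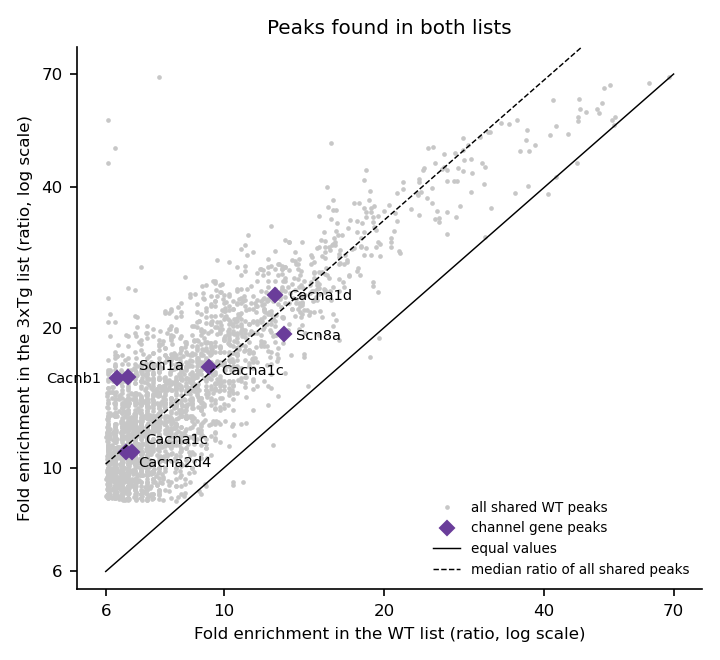
Fold enrichment of shared peaks in the WT list (horizontal) and the 3xTg list (vertical), both as ratios on log axes; grey points are all 2504 shared WT peaks, diamonds the 7 of channel genes, the solid line equal values and the dashed line the median ratio. The channel gene peaks lie above the solid line, with Cacnb1 and Scn1a highest above the dashed one.

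By position, 1 of 8 WT and 4 of 18 3xTg channel gene summits lay within 1 kb of a start site of any gene (12.5% and 22.2%), against 36.3% and 30.6% of all summits. Of the 4 in the 3xTg list, 1 was that at Dcp1a. Most of the rest lay in introns, and none lay in a coding exon or a UTR of its channel gene. The median fold enrichment of the channel gene peaks was 6.67 in WT and 10.80 in 3xTg, against 7.28 and 10.84 over all peaks. Their median GC content was 45.8% and 46.2%, against 49% and 47%.

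The best RE1 match in the 200 bases centred on each summit was taken next. A match with at most 5 mismatches was found in 0 of 8 WT and 2 of 18 3xTg channel gene windows. Over all peaks the shares were 5.69% and 3.78%, and in windows 10 kb downstream 0.467% and 0.336%. The 7 shared channel gene peaks gave 0 in either list. At most 6 mismatches added the Cacna2d3 peak, whose match lay 66 bases from the summit. Searching the whole peak added a match with 5 mismatches in the wide 3xTg peak of Scn1a.

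**Figure D5:**
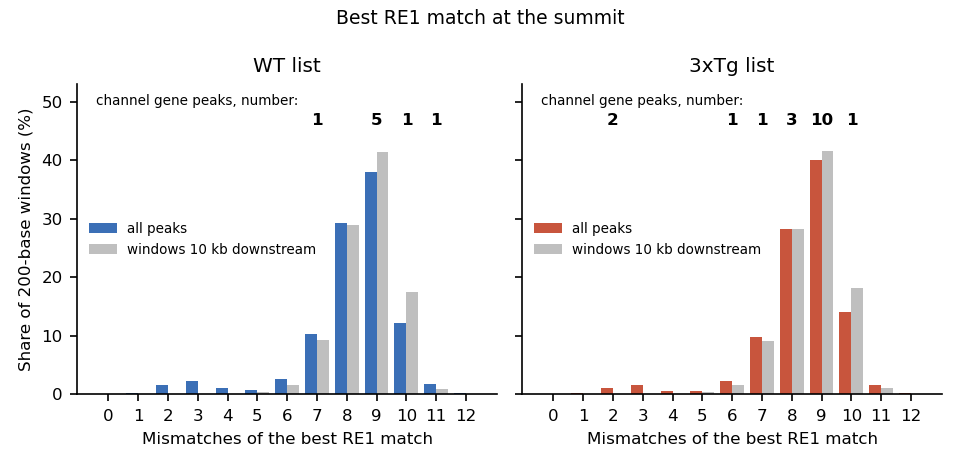
Mismatches of the best RE1 match (horizontal axis) in the 200 bases at each summit, as the share (%) of all peaks in colour and of windows 10 kb downstream in grey; the numbers on top count channel gene peaks. The channel gene peaks sit with the bulk at 7 to 11 mismatches, apart from 2 peaks at 2 mismatches and 1 at 6 in the 3xTg list.

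A list of 24 genes whose products bind or regulate these channels was read by the same rule. A WT peak was assigned to 8 (33.3%) and a 3xTg peak to 11 (45.8%), beside 9.3% and 14.2% of all genes. All of these 8 and 11 were among the 14 partners over 100 kb, and the shares of all genes weighted to the lengths of the partners were 17.7% and 27.6%. Among the 8 sodium channel partners 4 had a WT peak and 5 a 3xTg peak, beside length-weighted shares of 20.8% and 32.6%. No test was made on these small lists. Ankyrin G (Ank3) and neurofascin (Nfasc), which anchor sodium channels at the axon initial segment, and Fgf12, which modulates their inactivation, had the highest fold enrichments in the 3xTg list (23.60, 20.02 and 16.57), with 8.62, 8.89 and 9.64 in the WT list. All 3 peaks were shared, lay in introns, and had a best RE1 match with 8 or 9 mismatches. The Ank3 value in the 3xTg list was close to the highest of the channel genes.

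Among the 4 partners of Nalcn, 2 had a WT peak and 3 a 3xTg peak, beside length-weighted shares of 21.4% and 33.6%. Unc80, a subunit of the leak channel complex, had a 3xTg-only peak 248 bases from its start site with a fold enrichment of 14.33. Among the 12 calcium channel partners 2 had a WT peak and 3 a 3xTg peak, beside 14.4% and 22.2%. Rims2, an active zone scaffold, had 6.52 in WT and 13.98 in 3xTg, with the strongest 3xTg summit 1041 bases from a start site and a best RE1 match with 5 mismatches there. Rimbp2, which links calcium channels to the release site, had a shared peak with 8.13 in WT and 13.81 in 3xTg. Nedd4l, a ubiquitin ligase of sodium channels, had 2 WT peaks, and the stronger, also 8.13, was in the WT list only. Its 1 peak in the 3xTg list, at another site, had 12.85 and was shared with the WT list.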

How the data were processed

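REST ChIP-seq was performed on the cortex of WT and 3xTg mice. The authors sequenced 75-base single-end reads, aligned them to mm10, called peaks with MACS, filtered them for fold enrichment over 5 and q under 0.01, and removed blacklisted regions. The study's methods name STAR 2.7.0a as the aligner, and the submitters' processing notes also name BWA. The deposited lists give fold enrichment, a ratio over the local background, and the −log10 of the q-value for each peak, pooled over 4 replicates per genotype. They hold no read counts, so depth and replicate spread cannot be read from them, and the authors' DiffBind comparison was not used here. Peaks on chromosome Y (4 in WT, 9 in 3xTg) were left out.

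Peaks were joined to curated RefSeq transcripts of GRCm38 (mm10) with Python 3.11.15 and pysam 0.24.0. Peaks overlapping by at least 1 base were called shared. Ranks run by fold enrichment from the highest, with ties given the best rank. The RE1 consensus was read from the motif logo of the study. Introns were numbered in the longest curated transcript. The peak join, the shared classes and the motif search were tested on simulated data.

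All channel genes were accounted for, each with its peaks, and RE1 sequences were to be printed for peaks with at most 5 mismatches; the sequences outside these peaks were chosen after their values were seen. Up to 5 partner genes per list with the highest fold enrichment were named. The channel genes and the partner list were chosen with earlier results of these data known. Alternatives concerned the distance to a start site, the thresholds, the size of the lists, the overlap, the gene models, the background and the mismatches.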

Additional observations from a re-analysis of the deposited data

How the results depend on the processing

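No paired analysis was possible because the lists are pooled over the replicates, and leaving out each replicate could not be run for the same reason. Counting only peaks within 5 kb of a start site gave 2 channel genes in WT and 6 in 3xTg (6.72% and 9.87% of all genes), with 2 shared peaks, 4 found in 3xTg only and 0 in WT only. Within 1 kb these were 1, 5 (5.32% and 7.84% of all genes), 1, 4 and 0. The split into shared and only was not made for all peaks by these 2 rules. By summit, 1556 peaks of the whole 3xTg list lay within 1 kb of a start site, 806 shared and 750 found there only. In the whole WT list there were 1092, of which 277 were found there only. Fold enrichment over 10 in both lists gave 2 genes in WT and 7 in 3xTg (1.91% and 9.41% of all genes), 2 shared peaks (18.5% of all 3xTg peaks) and 0 found in WT only (0.669% of all). The 3xTg list was also cut by fold enrichment to about the size of the WT list (3059 peaks with ties). Then 7 channel genes had a 3xTg peak (8.91% of all genes) and 3 peaks were found in 3xTg only (32.7% of all). Scn2a and Cacna1b, the genes with an RE1 under a peak, were not among those 7. Asking for 50% of each peak to be covered gave 4 shared peaks and 4 found in WT only (35.1% of all 3xTg and 40.8% of all WT peaks). Without tandem repeats 0 were found in WT only (17.5% of all WT peaks). Weighting the background to the lengths of the channel genes moved it from 9.3% to 19.7% in WT and from 14.2% to 31.0% in 3xTg. The other 37 values stayed within 1.5 times of those reported, and protein-coding genes alone gave 10.3% and 15.7%. Of these 37, the 5 with q under 1e-05 and the 5 with chromosome Y kept could not move and show no stability. The lowest −log10 of the q-value was 13.3 in the WT list and 29.0 in the 3xTg list, and no channel gene lies on chromosome Y. The lists cannot show sites weaker than their lowest fold enrichment.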
